A study of Mus musculus with 14 samples.

Results

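The 6 genes described here, measured by 9 probe sets in mouse primordial germ cells from embryonic day (E) 9.5 to E13.5, are the regulators Prdm1, Prdm14 and Tfap2c and the germ cell genes Dppa3, Dppa2 and Dppa4. They were chosen by symbol as every probe set whose platform annotation gave exactly 1 of these 6 names, out of 45101 probe sets and 18193 named genes, and all 6 genes were found. Primordial germ cells are the embryonic founders of eggs and sperm. The 14 arrays formed 7 groups of 2 biological replicates. Cells were not separated by sex up to E11.5, and each sex formed its own group on both later days. The E9.5 cells were of strain C57BL/6, their label lists no transgene and no sort is described for them. From E10.5 on, embryos came from BDF1 mothers and fathers of a mixed B6/CBA background with a stella-EGFP transgene, and cells were sorted from trypsin-treated genital ridges by that green fluorescence. Stella is another name of Dppa3, so Dppa3 marks the reporter that selected the cells. Each array started from 5 ng of RNA (about 500 cells), amplified with 22 initial PCR cycles at E9.5 and 12 later. The labels call the replicates biological without saying how many embryos each held.

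Germ cells are set aside in the early embryo when BMP signals switch on Prdm1 and Prdm14 in a few epiblast cells. Prdm1 (also called Blimp1) and Prdm14 are zinc finger proteins with a PR domain. Prdm1 represses the somatic program, and Prdm14 restores pluripotency genes and opposes DNA methylation. Tfap2c, an AP-2 transcription factor, acts downstream of Prdm1. Dppa3 is an early germ cell marker that protects DNA from changes in methylation, and it binds the methylation cofactor Uhrf1. Dppa2 and Dppa4 are partner proteins with a SAP domain that bind chromatin in pluripotent and germ cells. Their genes are neighbours: in the RefSeq mouse table (GRCm38.p6) both lie on the same chromosome with 0 genes starting between them.

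Values are log2 probe set signals, so a difference of 1 is a 2-fold change, and the highest value in the table was 14.04. Array medians lay between 4.66 and 4.80, the number of arrays limited the precision, and a group mean under the table median of 4.72 is called dim. In bulk samples, fewer expressing cells and less RNA per cell cannot be told apart. Germ cell markers were present: Pou5f1 averaged at least 12.45 in every group and Kit at least 11.45. Dazl, a germ cell RNA-binding protein, was dim at E9.5 (4.70 ± 1.42 SD, n = 2) and read 13.34 ± 0.25 in E13.5 females, Tdrd1 was dim up to E12.5, and Nanos3 had no probe set. The signal difference between the 3′ and 5′ Gapdh controls, a measure of RNA integrity, was 3.09 and 3.16 on replicate 2 of the E13.5 females and males, and 2.53 or less on the other arrays. A change is said to have passed when its adjusted p from limma, corrected over all 18193 genes, was under 0.05.

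**Figure D1:**
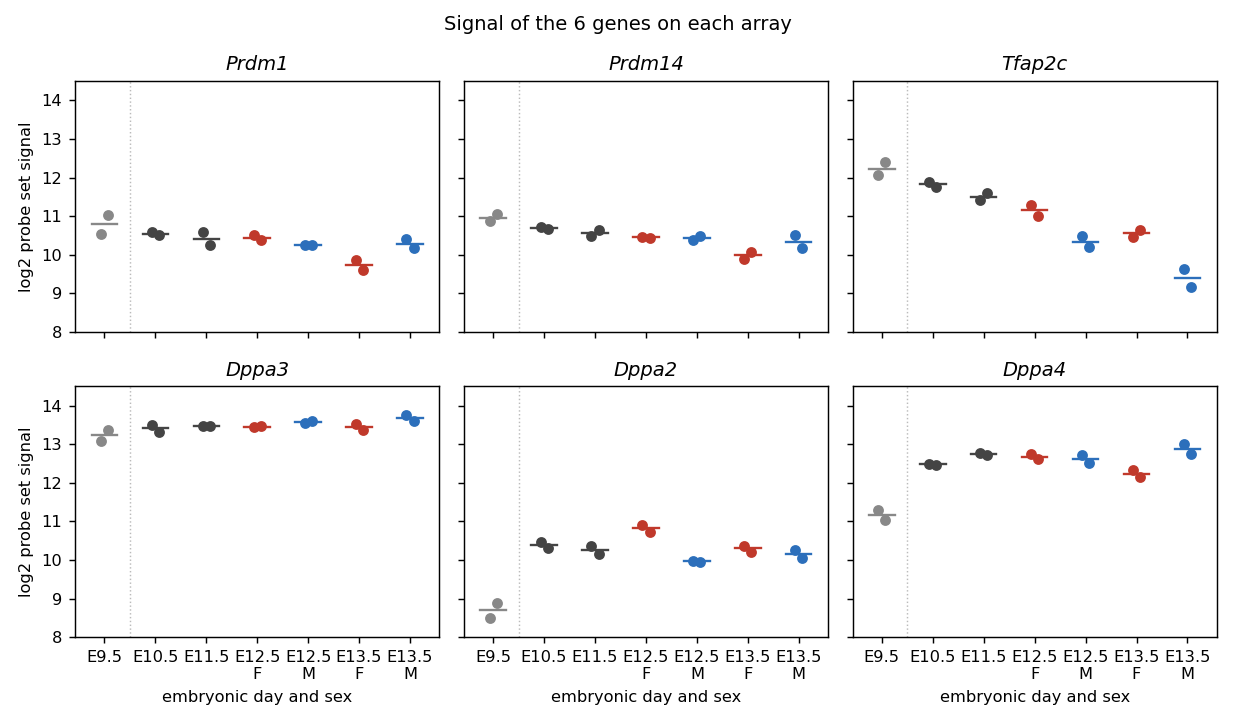
Log2 signal of the 6 genes on each of the 14 arrays (points), with the mean of each group as a bar, by embryonic day and sex (F female, M male). Grey marks E9.5, whose strain, kit and PCR cycles differ, black the unsexed later groups, red females and blue males. Tfap2c steps down to 9.62 and 9.17 in E13.5 males, while Dppa2 and Dppa4 are lowest at E9.5.

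Tfap2c fell from E10.5 to E13.5, and further in males than in females. On the probe set used for the tests (1436392_s_at) the 2 arrays of each group read 12.06 and 12.40 at E9.5, 11.88 and 11.75 at E10.5, and 11.41 and 11.59 at E11.5. Females then read 11.30 and 11 at E12.5 and 10.46 and 10.65 at E13.5, and males 10.48 and 10.21 at E12.5 and 9.62 and 9.17 at E13.5. In the order of the group means, each group lay apart from the next, except that E13.5 females and E12.5 males overlapped. From E10.5 to E13.5 the signal fell by 2.42 in males (SE 0.20, 5.35-fold lower, adjusted p = 3.98e-05) and by 1.26 in females (SE 0.20, 2.39-fold lower, adjusted p = 0.00159). Both calls held whichever array was left out. Males were lower than females at E13.5 by a log2 difference of -1.16 (SE 0.20, adjusted p = 0.00475), where 5.99% of all genes were lower in males. Since both falls start from the same E10.5 arrays, this is also the difference between the 2 falls, and its call was lost without E13.5 male replicate 2 (-0.94, adjusted p = 0.0502).

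Group means of Tfap2c were lower at each step toward E13.5 males, where the step to E12.5 starts from unsexed cells. Tfap2c differed by -0.31 between E11.5 and E10.5 (95% interval -0.76 to 0.13, adjusted p = 0.891). None of the 6 genes passed over that day with limma, where 0.077% of all genes did, and 0 of the 6 had an unadjusted p under 0.05. E12.5 males lay 1.16 log2 units under the unsexed E11.5 cells (change -1.16, SE 0.20, adjusted p = 0.0278), the only pass among the 6 where 0.676% of all genes were lower. Males fell by a further 0.95 to E13.5 (SE 0.20, adjusted p = 0.0419), again the only pass, where 0.731% of all genes were lower. Each of these male steps lost its call whichever of its 4 arrays was left out (from -1.29 to -1.02 and from -1.18 to -0.72). In females the steps of -0.35 and -0.59 did not pass (adjusted p = 0.517 and 0.179). Over the last female day none of the 6 passed with limma, where 1.87% of all genes did, while 5 of the 6, all but Dppa3, had an unadjusted p under 0.05 and a lower mean (median -0.49, all genes 0.03). Of all 18193 genes 2728 had an unadjusted p under 0.05 in either direction, 968 of them lower. With the sexes averaged, the step from E12.5 to E13.5 was -0.77 (SE 0.14, adjusted p = 0.0125), where 1.81% of all genes were lower. That call was lost without E12.5 female replicate 1 (-0.70), E12.5 male replicate 1 (-0.70) or E13.5 female replicate 1 (-0.72). At E12.5 itself males read 0.81 below females, all 4 arrays apart, and the difference did not pass (change -0.81, SE 0.20, adjusted p = 0.0763), though it was called under 2 of 12 alternative settings.

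The 3 Tfap2c probe sets moved together. Probe set 1418147_at changed by -3.00 in males and -1.46 in females from E10.5 to E13.5, and 1448977_at by -2.55 and -1.44. Corrected over all 34945 probe sets with a single symbol, each of the 3 passed in males (adjusted p = 0.000108, 7.75e-05 and 0.000197), in females (0.00507, 0.00252 and 0.00408) and between the sexes at E13.5 (0.0071, 0.00747 and 0.0273). For the male step from E12.5 to E13.5 none of the 3 passed in that larger family (adjusted p = 0.0713, 0.063 and 0.16).

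**Figure D2:**
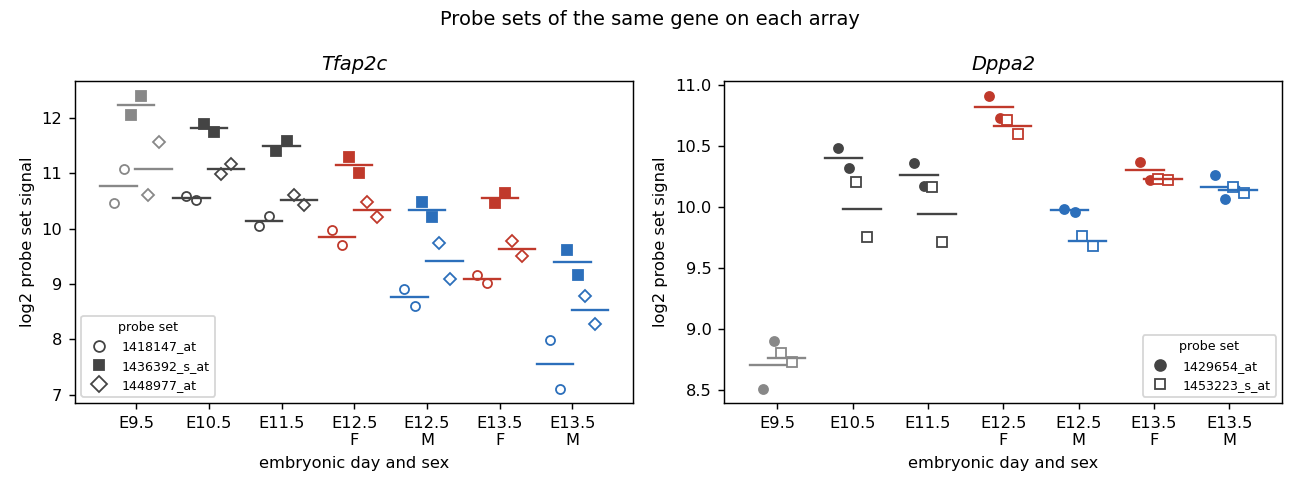
Log2 signal on each array of the 3 probe sets of Tfap2c and the 2 of Dppa2, by embryonic day and sex, with bars at group means and filled symbols for the probe set used in the tests. All 3 Tfap2c probe sets are lowest in E13.5 males, and both Dppa2 probe sets are lowest at E9.5 and highest in E12.5 females.

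Among 4394 other genes with a mean above the table median and group means at least 1 log2 unit apart, the 3 whose values followed Tfap2c most closely over the 12 arrays from E10.5 on were Elf3, 4933402E13Rik and Mdfic. Pearson's r was 0.986, 0.978 and 0.976, given as a description of arrays that share their groups. Elf3, an ETS transcription factor of epithelia, fell from 10.10 ± 0.16 (SD, n = 2) at E10.5 to 8.04 ± 0.24 for females and 5.96 ± 0.25 for males at E13.5. Mdfic, which encodes a protein with a MyoD family inhibitor domain, went from 8.93 ± 0.08 to 7.30 ± 0.05 and 5.22 ± 0.01. The other 5 genes were not matched in this way because their group means from E10.5 on spanned less than 1.

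Group means of Prdm1 and Prdm14 spanned 1.05 and 0.97 over all 7 groups, with E13.5 females at the bottom. Prdm1 (1420425_at) read 10.55 and 11.03 at E9.5, 10.60 and 10.50 at E10.5, and 10.58 and 10.24 at E11.5. It read 10.50 and 10.39 in E12.5 females, 10.24 and 10.26 in E12.5 males, 10.40 and 10.18 in males at E13.5, and 9.87 and 9.60 in females at E13.5. Only the last group stood apart from its neighbour in the order, and all other neighbouring groups overlapped. Prdm1 was lower in E13.5 females than at E10.5 by 0.81 (change -0.81, SE 0.18, 1.76-fold, adjusted p = 0.0108). In males the difference over the same days was -0.26 (95% interval -0.67 to 0.15, adjusted p = 0.436).

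Prdm14 (1444390_at) read 10.87 and 11.06 at E9.5, 10.71 and 10.68 at E10.5, and 10.49 and 10.64 at E11.5. Females read 10.47 and 10.43 at E12.5 and 9.90 and 10.08 at E13.5, and males 10.38 and 10.48 at E12.5 and 10.52 and 10.17 at E13.5. From E9.5 through E10.5 and E11.5 to E12.5 females the means lay 0.12 to 0.26 apart without overlap, E12.5 females, E12.5 males and E13.5 males overlapped in that order, and E13.5 females lay under all others. The female change from E10.5 to E13.5 was -0.70 (SE 0.17, 1.63-fold, adjusted p = 0.0169), and the male change was -0.35 (95% interval -0.73 to 0.03, adjusted p = 0.245).

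Neither PR domain gene passed between the sexes in the fit reported here, while Prdm1 at E13.5 was called under 3 of 12 alternative settings (quantile normalization, median centring and the Gapdh covariate, lowest adjusted p = 0.036). At E13.5 males read 0.55 higher for Prdm1 (95% interval 0.15 to 0.96, adjusted p = 0.0893) and 0.36 higher for Prdm14 (-0.03 to 0.74, adjusted p = 0.266), with no overlap of the arrays. At E12.5 the differences were -0.20 and -0.02. Without E13.5 female replicate 2 the female Prdm1 change was -0.68 and no longer passed, and without E13.5 female replicate 1 the Prdm14 change was -0.61 and no longer passed. The female Prdm1 call was also lost without both arrays of high Gapdh difference (-0.68).

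Over the whole span, 3 of the 6 genes passed as lower in E13.5 females than at E10.5 (Prdm1, Prdm14 and Tfap2c), where 6.39% of all genes did. In males 1 of 6 passed as lower (Tfap2c), where 5.23% of all genes did. None of the 6 passed as higher in either sex, where 11.5% of all genes did in females and 7.52% in males. The median change of the 6 was -0.47 in females and -0.25 in males, and that of all genes 0.08 and 0.07. With the sexes averaged the same 3 genes passed as lower (Prdm1 -0.54, Prdm14 -0.53 and Tfap2c -1.84), where 6.23% of all genes did. In 6 fits that each left out 1 array, the Prdm1 call held in 1, without E13.5 female replicate 1. The Prdm14 call held in 2, without E13.5 male replicate 1 or without E13.5 female replicate 2. Only the Tfap2c call held in all 6, so no such fit called all 3 genes. Of 12 alternative settings, Prdm1 was called under 6, Prdm14 under 8 and Tfap2c under all 12.

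**Figure D3:**
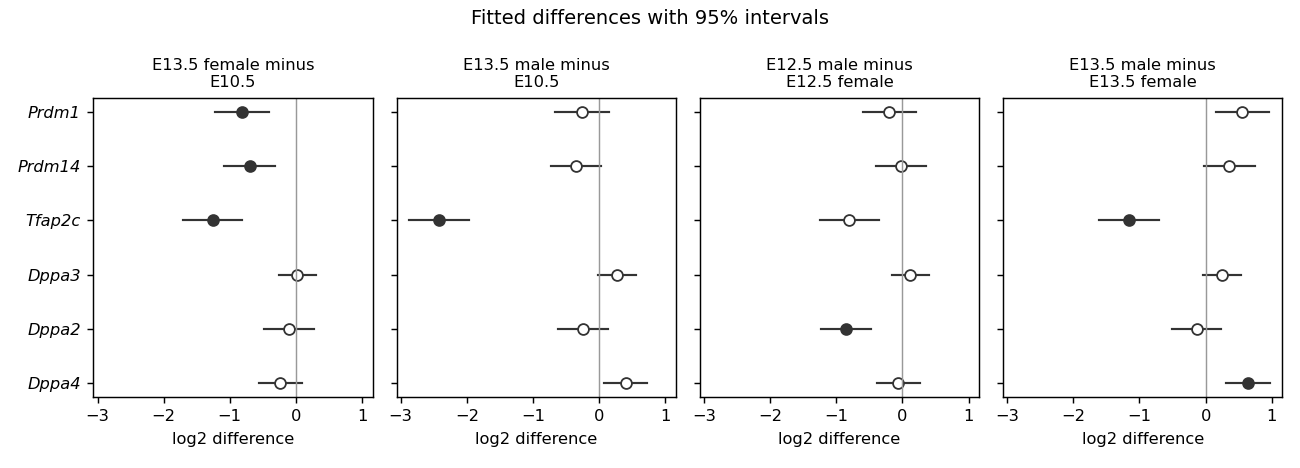
Fitted log2 differences of the 6 genes with 95% intervals, for E13.5 females and males against E10.5 and for males against females at E12.5 and E13.5. Filled points passed the adjusted threshold: Tfap2c in 3 of the panels, Prdm1 and Prdm14 in females over time, Dppa2 between the sexes at E12.5 and Dppa4 at E13.5.

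Dppa2 and Dppa4 were lower at E9.5 than from E10.5 on, though not dim. Dppa2 (1429654_at) read 8.51 and 8.90 at E9.5 and 10.48 and 10.32 at E10.5, a rise of 1.70 (SE 0.19, 3.24-fold, adjusted p = 0.00173). Dppa4 (1429597_at) read 11.30 and 11.04 at E9.5 and 12.50 and 12.45 at E10.5, a rise of 1.3 (SE 0.15, 2.47-fold, adjusted p = 0.00252). Both E9.5 arrays lay under all 12 later arrays for each gene. The other probe set of Dppa2 (1453223_s_at) rose by 1.21 (SE 0.20, adjusted p = 0.0281 over all probe sets). From E10.5 to E13.5 the 2 probe sets of Dppa2 had opposite signs, -0.10 and 0.25 in females and -0.24 and 0.16 in males, none of which passed. In all, 2 of the 6 genes passed as higher at E10.5, where 0.715% of all genes did.

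The other 4 genes did not pass between these ages, with changes from -0.41 for Tfap2c to 0.19 for Dppa3, and their E9.5 means lay at 10.79 for Prdm1, 10.96 for Prdm14, 12.23 for Tfap2c and 13.23 for Dppa3. Of 14 genes of the early germ cell program 0 passed in either direction with limma, where 1.06% of all genes did (median change -0.01, all genes -0.06). Unadjusted p was under 0.05 for 2 of the 14, and for 2932 of all 18193 genes. In a limma fit of the 4 arrays alone, with no estimate of spread from the other groups, neither rise passed (adjusted p = 0.682 for both). The E9.5 group differs from the later ones in strain, RNA kit and PCR cycles, and no sort is described for it. Its data were also first produced for previous work, so the rises of Dppa2 and Dppa4 are contrasts between studies too. None of these differences can be told apart from age.

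Markers of blood moved with this comparison. The summed signal of 5 blood genes lay between 13.47 and 14.10 at E9.5, between 11.16 and 11.54 at E10.5 and between 5.81 and 8.70 in later groups. Embryonic globin Hba-x was lower at E10.5 (change -2.96, adjusted p = 0.0434), the only pass of 5 blood genes, where 0.346% of all genes were lower. Ptprc, which marks white blood cells, and Hba-a1 were dim on all arrays. Of 10 gonadal somatic, 8 supporting, 6 endothelial and 7 epithelial markers 0 passed between E9.5 and E10.5 with limma, and 2, 2, 1 and 3 had an unadjusted p under 0.05. Summed gonadal somatic signal was between 9.63 and 10.79 at E9.5 and between 9.38 and 9.93 at E10.5. Of 6 germ cell markers 2 were higher at E10.5 (Dazl by 4.37 and Ddx4 by 1.67), where 0.715% of all genes were. The part of blood RNA in the Dppa2 and Dppa4 values was not tested.

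**Figure D4:**
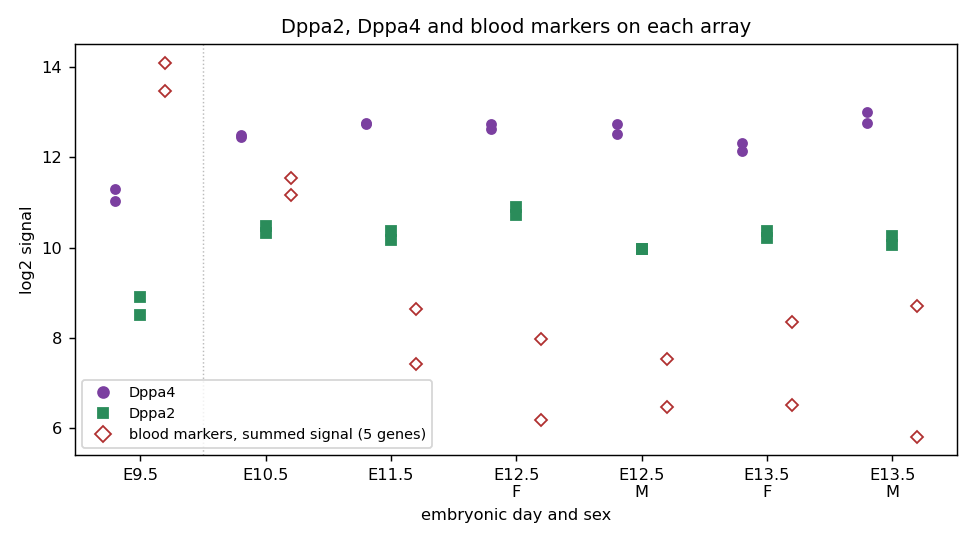
Log2 signal of Dppa4 and Dppa2 and the log2 of the summed signal of 5 blood marker genes on each of the 14 arrays, by embryonic day and sex. The 2 Dppa genes step up between E9.5 and E10.5 while the blood signal drops from between 13.47 and 14.10 to between 11.16 and 11.54, and blood falls further later while the Dppa genes stay above their E9.5 values.

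Dppa2 passed between the sexes at E12.5 and Dppa4 at E13.5, and the 2 genes were not tested against each other. Dppa2 read 10.36 and 10.17 at E11.5, 10.91 and 10.73 in E12.5 females, 9.98 and 9.96 in males of that day, 10.37 and 10.22 in E13.5 females and 10.26 and 10.06 in E13.5 males. On this probe set, 1429654_at, E12.5 females stood above every other group, and E12.5 males under every group except E9.5. On 1453223_s_at E12.5 females also stood highest, but E12.5 males (9.76 and 9.68) overlapped E11.5 (10.16 and 9.71). The male minus female difference at E12.5 was -0.85 (SE 0.17, 1.80-fold, adjusted p = 0.0284), the same way as for the other probe set (-0.93, adjusted p = 0.0613 over all probe sets). It was the only pass among the 6 at this age, where 1.73% of all genes were lower in males, and it was lost whichever of the 4 arrays was left out (from -0.94 to -0.76). Among markers of other cells at E12.5, Cst9 of supporting cells was higher in males by 4.89 (1 of 8, adjusted p = 0.00679) and Krt18 of epithelium lower (1 of 7, change -1.73, adjusted p = 0.00492), and their part in the Dppa2 value was not tested. At that age 0.665% of all genes passed as higher in males. At E13.5 the Dppa2 difference was -0.13 (95% interval -0.51 to 0.24).

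Dppa4 read 12.77 and 12.73 at E11.5, 12.74 and 12.63 in E12.5 females, 12.73 and 12.52 in males of that day, 12.33 and 12.15 in E13.5 females and 13 and 12.76 in E13.5 males. E13.5 females lay under every other group from E10.5 on. At E13.5 males were higher by 0.64 (SE 0.15, 1.56-fold, adjusted p = 0.0197), where 4.18% of all genes were higher in males. At E12.5 the difference was -0.06 (95% interval -0.39 to 0.27). The E13.5 call was lost without E13.5 male replicate 1 (0.52) or E13.5 female replicate 2 (0.55).

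Whether a sex difference itself changed between E12.5 and E13.5 was tested directly, and none of the 6 genes passed. The change was 0.75 for Prdm1 (SE 0.26, adjusted p = 0.477), 0.71 for Dppa2 (SE 0.24, adjusted p = 0.453) and 0.70 for Dppa4 (SE 0.21, adjusted p = 0.376). Only 2 of all genes passed this test with limma (0.011%), and 1350 genes had an unadjusted p under 0.05, 3 of the 6 among them.

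Other measures moved with the sex difference at E13.5, where 4.18% of all genes were higher and 5.99% lower in males. Without both arrays of high Gapdh difference, which leaves 1 array a group, the difference was -0.84 for Tfap2c (adjusted p = 0.169) and 0.67 for Dppa4 (adjusted p = 0.126). Of 8 supporting cell markers 1 was higher in E13.5 males (Cst9, 6.44) and 2 were lower (Irx3, -4.11, and Wnt4, -0.96). Their summed signal was between 9.48 and 9.81 in males and between 8.95 and 8.96 in females, Sox9 was dim on all arrays and Amh read 6.01 and 5.94 on average in the sexes. Of 7 epithelial markers Krt18 (-1.99, adjusted p = 0.000618) and Foxa1 (-1.78, adjusted p = 0.0348) were lower in males and Cdh1 higher (0.83, adjusted p = 0.00535). Their summed signal was between 12.78 and 13.02 in males and between 12.43 and 12.55 in females. Of the gonadal somatic, endothelial, blood and germ cell markers none passed between the sexes at E13.5 with limma, and 3, 0, 0 and 1 had an unadjusted p under 0.05. Whether the epithelial marker signal came from other cells or from the germ cells was not tested. The part of supporting and epithelial cells in the Tfap2c and Dppa4 values was not tested either.

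Dppa3 was level, as a description of the gene behind the sort. Its probe set (1424295_at) read 13.09 and 13.37 at E9.5, 13.50 and 13.33 at E10.5, 13.48 on both arrays at E11.5, 13.44 and 13.48 in E12.5 females, 13.56 and 13.61 in males of that day, 13.52 and 13.36 in E13.5 females and 13.76 and 13.61 in E13.5 males. The group means spanned 0.45 over all 7 groups, near the top of the scale, where 124 of 45101 probe sets had a higher mean. The difference nearest to passing was that of E13.5 males from E10.5 (0.27, 95% interval -0.01 to 0.55, adjusted p = 0.222).

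A single test asked whether a gene varied at all over the 6 groups from E10.5 on. Tfap2c passed (group means 2.42 apart, adjusted p = 0.000176), as did Dppa2 by a small margin (0.85 apart, adjusted p = 0.0481), where 18.5% of all genes did. The Dppa2 call was kept in 2 of 12 fits that each left out 1 array, and the Tfap2c call in all 12. Prdm1 (adjusted p = 0.0687), Dppa4 (0.0773), Prdm14 (0.12) and Dppa3 (0.543) did not. Prdm1 and Dppa4 were each called under 4 of 10 alternative settings of this test (lowest adjusted p = 0.0181 and 0.0239).

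Genes linked to these 6 were counted in lists. From E10.5 to E13.5, 11.5% of all genes passed as higher and 6.39% as lower in females, and 7.52% and 5.23% in males. Of 14 measured genes of the early germ cell program, which includes pluripotency factors, 5 passed as lower in E13.5 females than at E10.5 and 5 in males, and none as higher (median change -0.57 and -0.33, all genes 0.08 and 0.07). Esrrb, a nuclear receptor of pluripotency, fell by 1.43 in females and 1.24 in males. Nanog fell by 2.10 in females (adjusted p = 0.00683), Klf2 by 1.18 in females and 1.0 in males, and Sox2 by 0.61 and 0.67. Alkaline phosphatase Alpl fell by 2.21 in males and the receptor Kit by 0.61 in males. Between the sexes at E13.5, Utf1 (1.11) and Tcl1 (0.93) were higher in males, where 4.18% of all genes were higher and 5.99% lower.

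**Figure D5:**
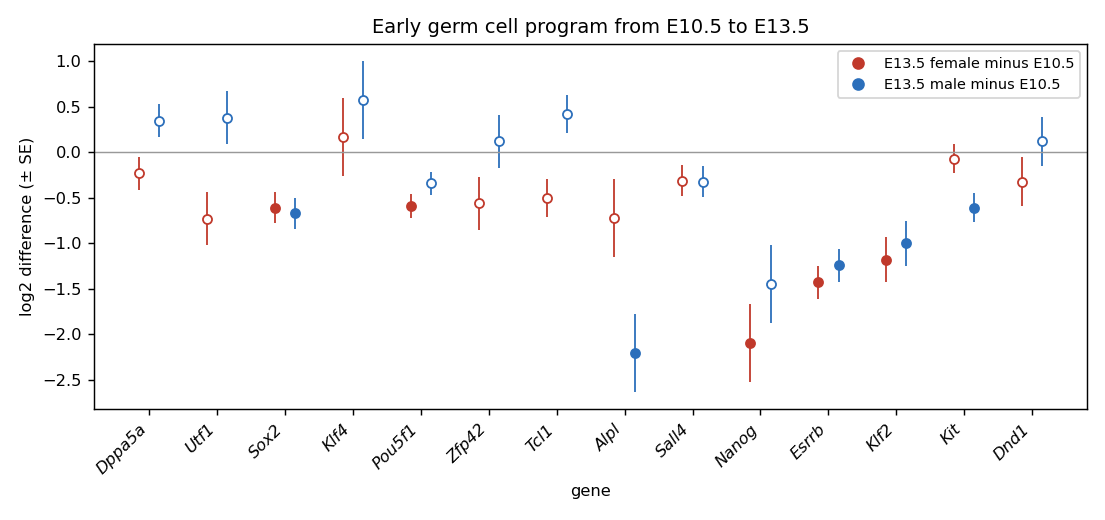
Log2 difference between E13.5 and E10.5, with standard errors, of 14 genes of the early germ cell program in females (red) and males (blue); filled points passed. Esrrb, Klf2 and Sox2 passed as lower in both sexes, Nanog and Pou5f1 in females, and Alpl and Kit in males.

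Of 10 partners of the regulators, 1 passed as higher (Ehmt2, a histone methyltransferase, by 0.54) and 1 as lower (Prmt5, the arginine methyltransferase that pairs with Prdm1, change -0.96) in E13.5 females against E10.5 (list median -0.15), where 17.9% of all genes passed in either direction. In males Ehmt2 alone passed, by 0.91 (median 0.02), where 7.52% of all genes were higher. Prmt5 was 0.91 higher in E13.5 males than in females (adjusted p = 0.0471), where 4.18% of all genes were higher in males. Cbfa2t2, the corepressor bound by Prdm14, averaged between 10.24 and 10.68 in all groups and did not pass.

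Inducing signals were mixed. Of 13 genes, 4 passed as higher and 1 as lower in E13.5 females against E10.5 (median 0.48), and 3 as higher in males (median 0.62). Among all genes 11.5% passed as higher and 6.39% as lower in females, and 7.52% as higher in males. The BMP receptors Bmpr1a (1.16) and Acvr1 (1.14) rose in females, and the signal transducer Smad5 rose in females (0.70) and males (0.71). Otx2, a transcription factor opposing entry into the germ line, differed by 5.83 between E13.5 males (8.37 ± 0.51) and females (2.54 ± 0.26, dim). The Bmp4 difference between these groups was 3.03 in size, without regard to direction. Among all genes 4.18% were higher and 5.99% lower in E13.5 males. The BMP ligand Bmp8b was dim in every group, and the T gene had no probe set.

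Of 10 somatic genes that are held down at specification, 3 passed as higher in E13.5 females against E10.5 (Msx1 2.98, Cdx2 2.09 and Fgf8 2.02, the last still dim). The list median was 0.52, and 11.5% of all genes passed as higher. In males, where 7.52% of all genes passed as higher and 5.23% as lower, Fgf8 rose by 2.57, still dim. Cdx2 fell by 4.04 in males, to a dim level (list median 0.12). From E9.5 to E10.5, 3 passed as lower (Hoxb1 -3.72, to a dim level, Cdx2 -1.84 and Msx1 -1.24) and none as higher (median -1.07, all genes -0.06), where 0.346% of all genes were lower.

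Of 9 DNA methylation genes linked to the regulators, Ehmt1, a histone methyltransferase gene that Prdm14 represses, passed as higher in E13.5 females against E10.5 (1.25, adjusted p = 0.00319, list median 0.41) and no gene of the list passed in males with limma (median 0.43), where 2 had an unadjusted p under 0.05. Uhrf1, the partner of Dppa3, averaged 5.32 ± 1.79 at E10.5, 7.12 ± 0.15 for E13.5 females and 6.58 ± 0.02 for males of that age, without a pass. Of 10 other PR domain genes, 3 passed as higher in E13.5 females (Prdm9 2.08, Prdm11 1.44 and Prdm2 0.91, median 0.42), and in males Prdm2 was higher (0.96) and Mecom lower (-1.07, median 0.41). Among all genes 11.5% passed as higher in females, and 7.52% as higher and 5.23% as lower in males. Prdm9, the gene that places meiotic crossovers, was 1.53 lower in E13.5 males than in females (change -1.53, adjusted p = 0.0313). Prdm11 was lower in males as well (-1.08, adjusted p = 0.0467), where 5.99% of all genes were. Of the 4 other AP-2 genes none passed from E10.5 to E13.5 with limma (1 in females and 0 in males had an unadjusted p under 0.05), and Tfap2b and Tfap2d were dim in every group. Tfap2e, at dim levels, differed between the sexes at E13.5 (means 0.78 in males and 4.0 in females, change -3.23, adjusted p = 0.0401).

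Markers of other cells also moved from E10.5 to E13.5. Over these days 11.5% of all genes passed as higher and 6.39% as lower in females, and 7.52% and 5.23% in males. Of 10 gonadal somatic markers 2 were lower in females (Col3a1 -3.52 and Pdgfra -1.02) and 1 in males (Col3a1 -2.55). Of 6 endothelial markers 3 were lower in females and 2 in males (Tek -2.44 and -1.88, Emcn -2.73 and -2.08), and of 5 blood markers Hba-x was lower in each sex (-5.00 and -4.96). Of 8 supporting markers 1 was higher in females, and 1 was higher and 1 lower in males. Of 7 epithelial markers 3 were higher in females, and 1 was higher and 1 lower in males. Of 6 germ cell markers 3 were higher and 1 lower in each sex. Their part in the changes of Tfap2c, Prdm1 and Prdm14 was not tested.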

How the data were processed

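RNA of the 14 samples was hybridised to Affymetrix arrays. The authors deposited 1 value per probe set on a log2 scale (read from the value range), normalized over all 14 arrays together per the series' design text. The normalization software is not given in the sources used here. Symbols came from the platform annotation: of 45101 probe sets, 34945 had 1 symbol, 932 several and 9160 none, and 64 controls were left out. Each of 18193 genes was represented by its probe set of highest mean. Differences were tested in limma 3.58.1 (R 4.3.3) with 1 mean per group, an intensity trend and Benjamini-Hochberg adjustment over all genes at 0.05. The 12 arrays from E10.5 on were fitted together, and all 14 for E10.5 against E9.5, in 15 comparisons (90 tests of the 6 genes). The script was tested on simulated data. Alternatives covered scaling, filters, probe set choice, variance model, arrays fitted, Gapdh integrity, replicate number and each array left out; 1 more, without both arrays of high Gapdh difference, was chosen after seeing the data.

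All 6 genes were named, with the 3 other genes nearest by correlation to any of them whose group means spanned at least 1, and genes of 13 lists (inducing signals, protein partners, early program, somatic genes, DNA methylation, other PR domain and AP-2 genes, and markers of germ, gonadal somatic, supporting, endothelial, blood and epithelial cells). The 6 genes and the lists were chosen with earlier results of these data known. Pairing by replicate number was checked: over 15 pairs of groups, deviations correlated between -0.19 and 0.27, with 2 above 0.1, so the numbers were not taken to pair samples.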

Additional observations from a re-analysis of the deposited data

How the results depend on the processing

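Of 90 tests of the 6 genes 17 were called. Under the 12 alternatives that left no array out 5 of these calls held throughout, 6 held whichever array was left out, and 0 changed sign; of the 73 others, 5 were called under some alternative. The Tfap2c calls of E13.5 females, males and both sexes against E10.5, and over all 6 groups, held in every fit run. Groups of 2 arrays limit the rest, and signal over background was not given per probe set.

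The number of the 6 genes called moved as follows. With no intensity trend it was 0 for E12.5 males against E11.5 (from 1), 0 for E13.5 against E12.5 males (from 1), 1 for E13.5 of both sexes against E10.5 (from 3), 0 for the sexes at E12.5 (from 1), 1 for the sexes at E13.5 (from 2) and 1 over the 6 groups (from 2). With only the arrays compared these were 0, 0, 1, 2 and 1 for the first 5, 1 for E13.5 females against E10.5 (from 3) and 0 for E10.5 against E9.5 (from 2). With a floor at the 25th percentile the first 2 were 0 and 0, and the test over the 6 groups called 3, adding Prdm1. With Gapdh integrity in the fit they were 0 and 0, E13.5 against E12.5 of both sexes was 0 (from 1) and E13.5 of both sexes against E10.5 was 1, while the sexes at E13.5 gave 3, adding Prdm1, and the 6 groups 3, adding Dppa4. Quantile normalization gave 3 for the sexes at E13.5 and 3 over the 6 groups, adding Prdm1 to each. Median centring gave 3 for the sexes at E13.5, adding Prdm1, and 3 over the 6 groups (Prdm1, Tfap2c and Dppa4). Without genes below the median gene the 6 groups gave 3, adding Dppa4. With array weights E13.5 against E12.5 females was 1 (from 0), E13.5 of both sexes against E10.5 was 1 and the sexes at E12.5 gave 2, and E13.5 females against E10.5 fell to 2. With the mean of all probe sets, or every probe set on its own, E13.5 against E12.5 males was 0 and the test over the 6 groups 1. E13.5 of both sexes against E10.5 gave 2 with every probe set on its own and with all 14 arrays. With the replicate number as a block the test over the 6 groups called 4 genes (Prdm1, Tfap2c, Dppa2 and Dppa4), and the block moved no other count. Without both arrays of high Gapdh difference the counts were 0 for E13.5 against E12.5 in males and in both sexes, 2 for E13.5 females and 1 for both sexes against E10.5, 0 for the sexes at E13.5 and 1 over the 6 groups. Leaving out 1 array gave 0 to 0 for both male steps and the sexes at E12.5, 0 to 1 for E13.5 against E12.5 of both sexes, 2 to 3 for E13.5 females against E10.5, and 1 to 2 for E13.5 of both sexes against E10.5, for the sexes at E13.5 and over the 6 groups. Beyond what fewer arrays or genes do to a fit, the cause was not tested.

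In 16 uncalled tests 36 values took the opposite sign, all near 0. Under quantile normalization these were -0.02 for Dppa3 (E11.5 against E10.5), -0.07 for Prdm1 (E12.5 females against E11.5), -0.01 for Prdm1 (E13.5 against E12.5 males), -0.06 for Dppa3 (E13.5 females against E10.5) and 0.04 for Prdm14 (sexes at E12.5). Under median centring they were -0.09 for Prdm1 (E12.5 females against E11.5), -0.02 for Dppa3 (E12.5 of both sexes against E11.5), -0.02 for Prdm1 (E13.5 against E12.5 males), -0.01 for Dppa3 (E13.5 against E12.5 of both sexes), -0.09 for Dppa3 (E13.5 females against E10.5), and 0.10 for Prdm14 and 0.06 for Dppa4 (sexes at E12.5). With the Gapdh covariate they were 0.01 for Prdm1 (E11.5 against E10.5), -0.08 for Prdm1 (E12.5 females against E11.5), -0.03 for Dppa3 (E12.5 of both sexes against E11.5), 0.06 for Dppa3 (E13.5 against E12.5 females), 0.03 for Dppa4 (E13.5 against E12.5 of both sexes) and 0.04 for Dppa2 (E13.5 females against E10.5). With the mean of probe sets Dppa2 was 0.07 in E13.5 females and 0.02 in both sexes against E10.5. Without both arrays of high Gapdh difference the values were 0.06 for Dppa3 (E13.5 against E12.5 females), 0.09 for Prdm14 (E13.5 against E12.5 males) and 0.01 for Dppa4 (E13.5 against E12.5 of both sexes). Leaving out 1 array at a time, Prdm1 ranged from -0.31 to 0.03 (E11.5 against E10.5), -0.14 to 0.20, -0.33 to 0.01 and -0.23 to 0.11 (E12.5 females, males and both sexes against E11.5) and -0.07 to 0.15 (E13.5 against E12.5 males). Prdm14 ranged from -0.26 to 0.09 (E13.5 against E12.5 males) and -0.07 to 0.03 (sexes at E12.5), and Dppa4 from -0.16 to 0.05 (sexes at E12.5). Dppa3 ranged from -0.02 to 0.15 (E11.5 against E10.5), -0.10 to 0.06 (E13.5 against E12.5 females) and -0.06 to 0.11 (E13.5 females against E10.5). The test over the 6 groups was not run with only the arrays compared or with all 14 arrays.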
